A study of Danio rerio with 8 samples.

Results

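Complement is a cascade of secreted proteins that marks and damages targets and recruits leukocytes. The C1q protein, built of A, B and C chains, starts the classical pathway by binding antibody or altered surfaces, collectins start the lectin pathway, and both lead through C4 to C3. Factors B and D drive the alternative pathway, factor H restrains it, and C5 to C9 form the membrane attack complex. Most plasma complement is made in the liver, while C1q comes largely from macrophages in mammals. In the injured heart, work in zebrafish, axolotl and newborn mice has tied the receptor C5aR1 to regeneration.

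The 10 complement genes described here are c1qa, c1qb, c1qc, c3a.1, c3a.3, c4b, c7b, cfb, cfd and cfh. They were found by symbol, each in a single row of its own among 32520 gene rows. They were followed in the cardiac ventricle of adult zebrafish, in homozygous cox7a1 mutants (cox7a1-/-) and in their wildtype siblings, every heart having been frozen locally (cryoinjury) 7 days before it was taken. Cox7a1 belongs to cytochrome c oxidase, complex IV of the respiratory chain, and the study asked what its loss does to the injured heart. There were 4 pools per genotype, each of 5 ventricles; the labels name neither the strain nor the mutant allele. There was no uninjured group, so the values compare genotypes after injury and not injury itself. In bulk tissue, fewer cells of a type and less RNA per cell cannot be told apart.

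Total counts ran from 41556101 to 69057989 in mutant pools and from 49788133 to 53597730 in wildtype pools. Levels are given as CPM, read counts scaled to a common library size, and as CPM per kilobase of exon where genes are compared with each other. A gene was called where its p from edgeR's quasi-likelihood test, adjusted over all 17949 genes that passed a count filter, was under 0.05, which held for 2.02% of them (363 genes). That count was 110, 171, 68 and 380 without mutant replicate 1, 2, 3 or 4, and 136, 97, 69 and 473 without wildtype replicate 1, 2, 3 or 4. The transcript of cox7a1 itself was at 59.5, 113, 88.5 and 194 CPM in mutant replicates 1 to 4, against 210, 278, 286 and 211 CPM in wildtype replicates 1 to 4, with no overlap. Its log2 fold change was -1.11 ± 0.295 (SE; edgeR adjusted p = 0.0776, two-sided exact permutation p = 0.0286, the smallest that 4 against 4 pools allow), and the adjusted p was 0.0144 without mutant replicate 4. Cardiomyocyte markers summed to between 40514 and 58387 CPM in mutant pools and between 39832 and 48000 CPM in wildtype pools. Of the 11 tested 5 had positive and 6 negative log2 fold changes (median -0.05), and none was called by edgeR. A MYH6 row (ENSDARG00000079564, log2 fold change 0.58, adjusted p = 0.0566) and actc1a (0.42, adjusted p = 0.187) were higher in every mutant pool than in any wildtype pool, both with an unadjusted p under 0.05. Of all tested genes 6.27% had no overlap with mutants higher, and 9.42% were higher with such an unadjusted p. The part of cardiomyocyte content in the complement values was not tested.

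None of the 8 members that passed the filter was called with edgeR, against 1.14% of all tested genes called higher and 0.88% called lower. Factor D (cfd) came nearest, at 0.644-fold in mutants with an adjusted p of 0.0598, and it was the 1 member with an unadjusted p under 0.05, against 18% of all tested genes (3235 genes, 8.6% lower and 9.42% higher). DESeq2 and limma-voom each called 1 member, cfd, lower. Of the 17949 tested genes DESeq2 called 1107 (488 lower) and limma-voom 370 (146 lower), against 363 with edgeR (158 lower). The remaining members, cfb and c3a.3, had almost no reads. In 5 of the 8 the log2 fold change was negative, and the median was -0.25, against 0.0030 over all tested genes. The median lay at -0.0050 without wildtype replicate 1.

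**Figure D1:**
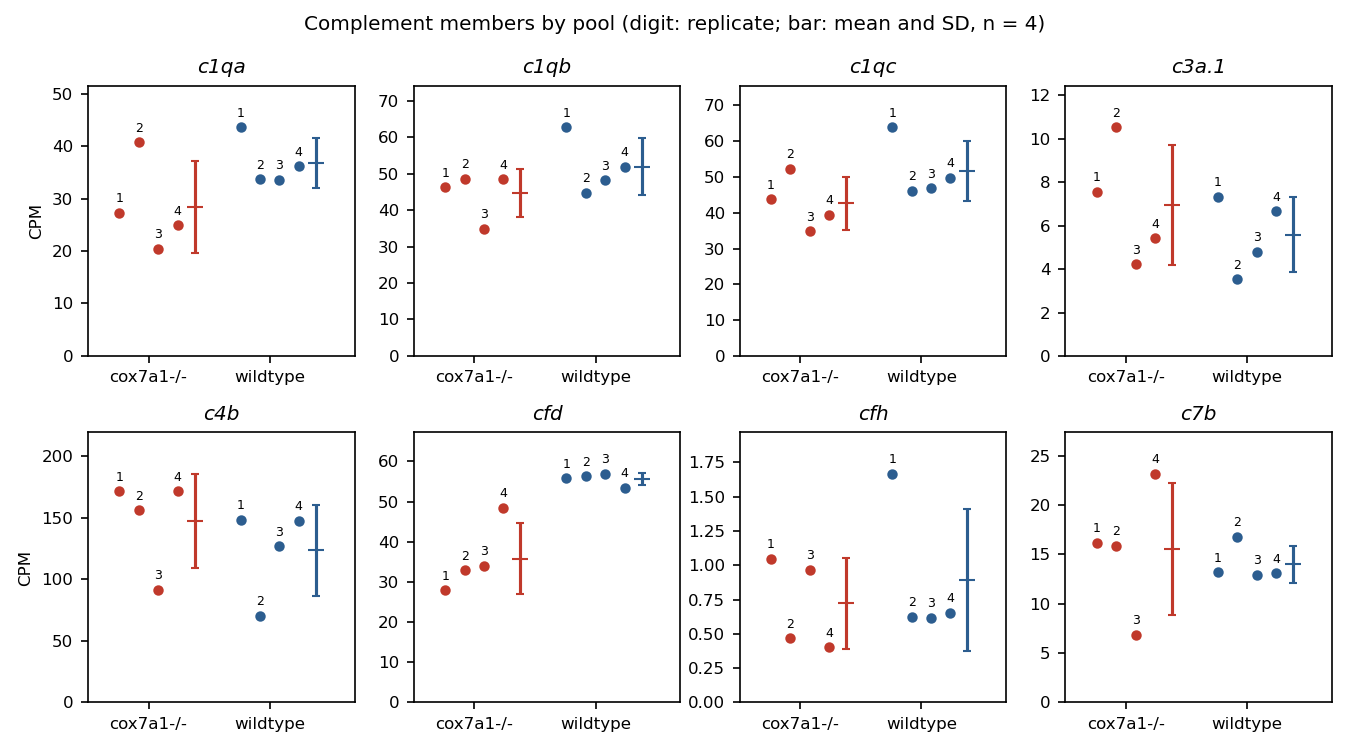
CPM of the 8 tested complement members (vertical axis, from 0) in each pool, with cox7a1-/- pools on the left and wildtype pools on the right of each panel; digits give the replicate, and the bar is the mean with SD (n = 4). The 4 cfd values of mutant pools, 27.9 to 48.5 CPM, lie below the wildtype values of 53.5 to 56.9 CPM, and in the other 7 panels the genotypes overlap.

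The largest difference among the members was in cfd (ENSDARG00000039579; GRCz11, chromosome 13, 13681681 to 13684334, plus strand, 900 exonic bases), which encodes factor D, the serine protease that cuts factor B and so completes the C3 convertase of the alternative pathway. It held 27.9, 32.9, 34.1 and 48.5 CPM in mutant replicates 1 to 4, against 55.8, 56.4, 56.9 and 53.5 CPM in wildtype replicates 1 to 4. Every mutant pool lay below every wildtype pool, and cfd was the 1 member of 8 without overlap between the genotypes (11.7% of all tested genes had none, and 5.48% had none with mutants lower). The means were 35.8 ± 8.85 CPM in mutant and 55.7 ± 1.51 CPM in wildtype pools (SD, n = 4 each). The log2 fold change was -0.64 ± 0.154 (SE), with a 95% interval of -0.97 to -0.30 that is not adjusted for the number of genes.

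The wildtype pools were closely alike in cfd and the mutant pools were not. On the log2 scale its SD was 0.335 among mutant and 0.0396 among wildtype pools, where the median SD over all tested genes was 0.273 among mutant and 0.258 among wildtype pools. Mutant replicate 4 had the most cfd and also the most cox7a1 of the mutant pools, and mutant replicate 1 the least of both. Mutant replicates 2 and 3 stood in opposite orders, with cfd at 32.9 and 34.1 CPM and cox7a1 at 113 and 88.5 CPM. Mutant replicates 1 and 4 were also the lowest and highest mutant pools in total counts (41556101 and 69057989). The same held for the summed cardiomyocyte markers (40514 and 58387 CPM) and adipocyte markers (550 and 684 CPM), but for no other marker list. A link between the levels of cfd and cox7a1 was not tested. Without mutant replicate 4 the cfd log2 fold change was -0.82 and the gene was called (edgeR adjusted p = 0.0117). With any other single pool left out it was not called, with log2 fold changes from -0.67 to -0.54 and adjusted p-values from 0.0648 to 0.175.

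The side of the threshold on which cfd fell also turned on the settings. It was called lower with libraries scaled by their totals alone (adjusted p = 0.0421), with no filter on low counts (0.0453), with a filter of at least 1 CPM in at least 4 pools (0.0497), with limma-voom (0.0476), with a trend on gene length removed (0.0291) and with DESeq2 (0.00728). It was not called with DESeq2's size factors in edgeR (0.0592) or with the replicate number as a block (0.0736). In all 16 alternatives cfd was lower in mutants, with log2 fold changes between -0.82 and -0.54.

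**Figure D2:**
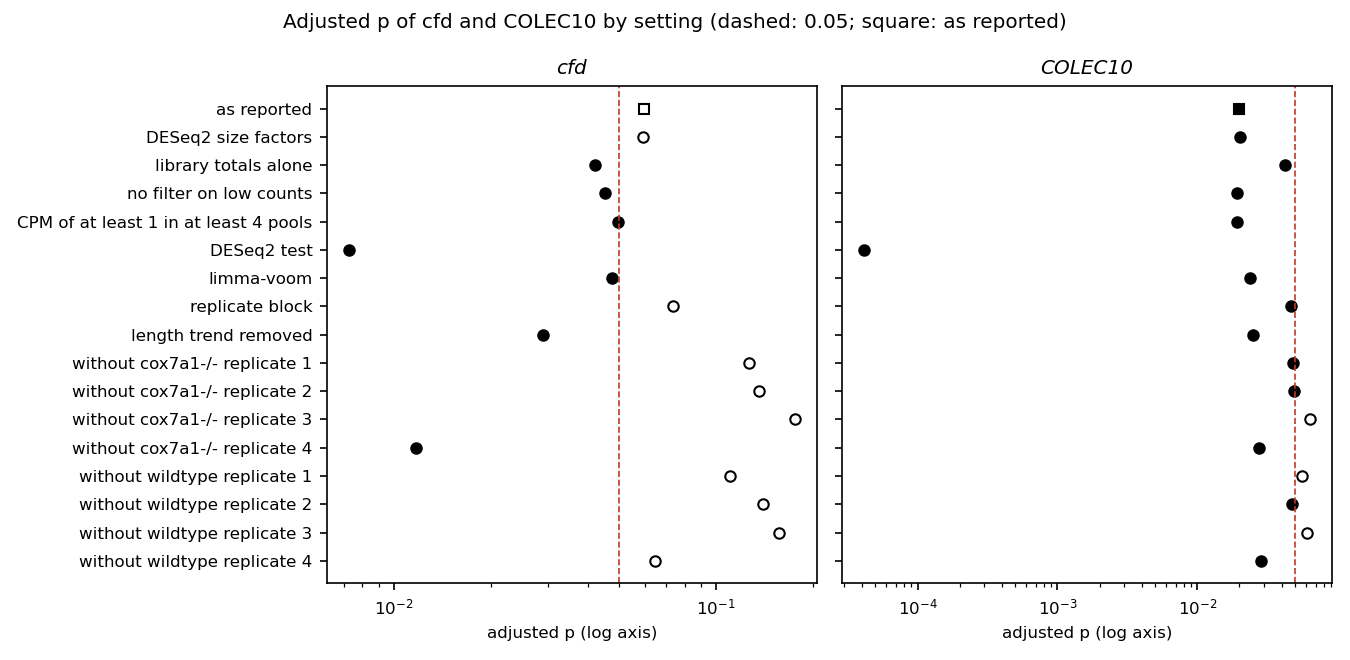
Adjusted p (horizontal log axis; dashed line at 0.05) of cfd and of COLEC10, a collectin gene of the wider pathway, under each setting (rows; square for the value as reported, filled symbols under 0.05). The cfd values run from 0.00728 with DESeq2 to 0.175 without mutant replicate 3, and those of COLEC10 reach 0.0636.

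The other protease of the alternative pathway convertase, factor B, was nearly unread under its symbol. The gene cfb (ENSDARG00000055278; chromosome 21, 27416284 to 27431397, plus strand) had 0 reads in each mutant pool, and 1 read in wildtype replicate 2 with 0 in the other wildtype pools. A count of 0 over the 4 mutant pools allows a level of up to 0.0149 CPM (3 counts, counting error only). That ceiling does not cover reads that map to several places, which the counting program leaves out by default. The gene bfb, 6470 bases from cfb on the opposite strand, averaged 0 CPM. The gene cfbl (complement factor b, like), 17459 bases from cfb on the same strand, was read, at 12.8 ± 3.67 CPM in mutant and 13.3 ± 5.04 CPM in wildtype pools (SD, n = 4 each), with a log2 fold change of -0.05 ± 0.26 (SE; edgeR adjusted p = 0.941). Properdin (cfp), which stabilises that convertase, averaged 44.9 ± 7.38 CPM in mutant and 57.8 ± 16.5 CPM in wildtype pools and was not called (log2 fold change -0.36 ± 0.191, edgeR adjusted p = 0.342). Wildtype replicate 1 had the most cfp (81.6 CPM), and without it the value was -0.16.

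The C1q chain genes lie side by side on the minus strand of chromosome 21 (GRCz11, 22712307 to 22724980), with c1qb (ENSDARG00000044612), c1qc (ENSDARG00000095627) and c1qa (ENSDARG00000044613) in that order and gaps of 2527 and 1576 bases. The A chain gene c1qa held 27.3, 40.8, 20.4 and 24.9 CPM in mutant replicates 1 to 4, against 43.6, 33.7, 33.6 and 36.2 CPM in wildtype replicates 1 to 4. Of the mutant pools only replicate 2 reached the wildtype range. The B chain gene c1qb held 46.4, 48.6, 34.9 and 48.6 CPM in mutant pools, against 62.8, 44.8, 48.2 and 52.0 CPM in wildtype pools. The C chain gene c1qc held 43.8, 52.3, 34.9 and 39.5 CPM in mutant pools, against 63.9, 46.2, 46.9 and 49.8 CPM in wildtype pools. For each of the 3 chains mutant replicate 3 was the lowest of the 8 pools and wildtype replicate 1 the highest, and the genotypes overlapped.

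The 3 chains had negative log2 fold changes, and none was called. These were -0.37 ± 0.19 for c1qa, -0.22 ± 0.143 for c1qb and -0.28 ± 0.151 for c1qc (SE), with edgeR adjusted p-values of 0.326, 0.458 and 0.36. The 95% intervals ran from -0.79 to 0.04, from -0.53 to 0.09 and from -0.61 to 0.05, and each took in equal levels. The cfd estimate of -0.64 lay inside the interval of c1qa and beyond those of c1qb and c1qc. However, the interval of cfd itself, -0.97 to -0.30, overlapped all 3. Whether a chain differed from cfd in its change was not tested. Without mutant replicate 2, the pool with the most c1qa among mutants, the c1qa value was -0.60 (adjusted p = 0.0896). Without mutant replicate 3, the values were -0.25 for c1qa and -0.12 for c1qb, and without wildtype replicate 1 they were -0.12 for c1qb and -0.17 for c1qc. The signs of all 3 stayed negative in each of the 16 alternatives.

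Per kilobase, c1qb and c1qc were close to each other and c1qa was lower. The ratio of c1qc to c1qb in CPM per kilobase lay between 0.821 and 1.09 in mutant pools and between 0.968 and 1.04 in wildtype pools. That of c1qb to c1qa lay between 1.44 and 2.35 in mutant pools and between 1.60 and 1.74 in wildtype pools. The proportions of the chains spanned a narrower range among the wildtype pools than among the mutant pools, a difference that was not tested.

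Macrophage markers shared the lowest and the highest pool with C1q, but not the whole order of pools. The summed level of the 25 marker rows, 8 of them copies of MFAP4, was 1296, 1278, 905 and 1073 CPM in mutant replicates 1 to 4, against 1387, 1045, 1165 and 1305 CPM in wildtype replicates 1 to 4, again lowest in mutant replicate 3 and highest in wildtype replicate 1. In mutant replicates 1 and 4 the 3 C1q chains summed to 117 and 113 CPM, below every wildtype pool (125 to 170 CPM). The marker sums of both pools lay inside the wildtype range. The largest part of the marker sum was cd74a, at 402 CPM in mutant and 479 CPM in wildtype pools on average. Of the 21 that passed the filter 14 were negative, with a median log2 fold change of -0.23, 6 had an unadjusted p under 0.05 (5 lower and 1 higher, where 8.6% of all tested genes were lower and 9.42% higher), and none was called by edgeR. Markers differed among themselves. The smallest unadjusted p in each direction belonged to an MPEG1 row (ENSDARG00000043093), a perforin-like gene of macrophages, with a log2 fold change of 0.78 ± 0.218, and to the apolipoprotein gene apoc1, with -1.72 ± 0.467 and no overlap (SE; edgeR adjusted p = 0.0921 and 0.0831). Levels of apoc1 were low, at 0.553 ± 0.161 CPM in mutant and 1.83 ± 1.09 CPM in wildtype pools (SD, n = 4 each). That MPEG1 row averaged 33.1 CPM in mutant and 19.3 CPM in wildtype pools. Another tested MPEG1 row (ENSDARG00000055290) was more abundant, at 41.2 CPM in mutant and 40.5 CPM in wildtype pools. Its log2 fold change was 0.03 ± 0.221 (SE; edgeR adjusted p = 0.969). The growth receptor gene csf1ra had 0.06 ± 0.18 (edgeR adjusted p = 0.896). Its paralog csf1rb had -0.57 ± 0.238 (adjusted p = 0.234) and no overlap, where 5.48% of all tested genes had none with mutants lower. Besides apoc1 and csf1rb, the lower markers with an unadjusted p under 0.05 were cd74b (-0.36 ± 0.141), ctss2.2 (-0.38 ± 0.166) and a MFAP4 row (ENSDARG00000088745, -0.87 ± 0.358). The part of macrophage content in the C1q values was not tested.

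The genes most like the C1q chains were found by the root mean square difference of log2 levels over the 8 pools, each gene centred on its own mean. Among 12726 candidates the 5 nearest to the mean of the 3 chains were ctss2.2, a cathepsin S gene and 1 of the macrophage markers used here (0.0891), anxa3b, an annexin (0.0907), fthl27, a ferritin heavy chain gene (0.0925), malt2 (0.0959) and GTF3C5 (0.101), where the median candidate differed by 0.357. For cfd the nearest were mbd4, a DNA glycosylase gene (0.101), gstp1.2, a glutathione transferase gene (0.114), mfsd14bb (0.114), FBXO48 (0.122) and TMCO3 (0.124), against a median of 0.453. No macrophage marker was among the 5 nearest to cfd, which says little, since at most 21 of the 12726 candidates were such markers. These are descriptions over 8 pools of 2 genotypes, and none of the 10 genes was called.

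**Figure D3:**
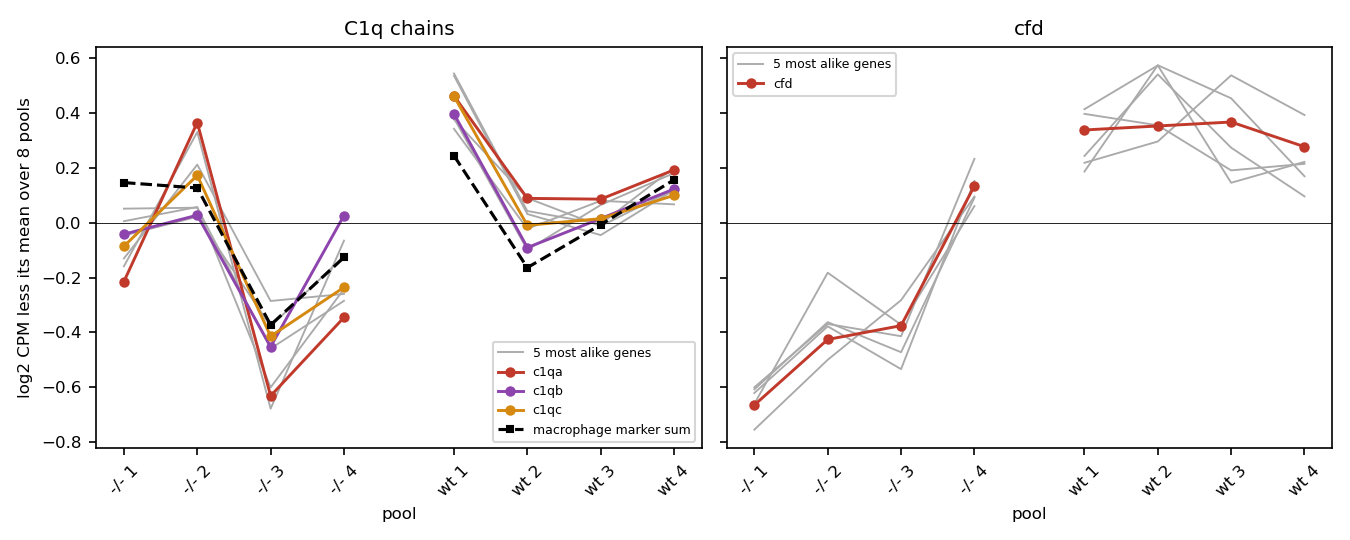
Log2 CPM less its mean over the 8 pools (vertical axis) for the C1q chains and the summed macrophage markers (left) and for cfd (right), with the 5 most alike genes of each in grey; the horizontal axis lists pools, which have no order, and lines only join values of a gene. The C1q chains are lowest in mutant replicate 3 and highest in wildtype replicate 1, whereas cfd is lowest in mutant replicate 1 and level across wildtype pools.

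C4 and C3 differed widely in level and neither was called. The C4 gene c4b (ENSDARG00000038424; chromosome 16, 16665203 to 16701718, minus strand), whose product is cut by the C1s protease to help form the classical C3 convertase, held 172, 156, 91.6 and 172 CPM in mutant replicates 1 to 4, against 149, 70.6, 127 and 148 CPM in wildtype replicates 1 to 4. The genotypes overlapped, with a single low pool in each, mutant replicate 3 and wildtype replicate 2. Its log2 fold change was 0.26 ± 0.249 (SE; 95% interval -0.29 to 0.80, edgeR adjusted p = 0.643), and it was 0.43 without mutant replicate 3, 0.17 without mutant replicate 1 and 0.067 without wildtype replicate 2. The second C4 gene, c4, stood at 186 ± 21.3 CPM in mutant and 183 ± 31.2 CPM in wildtype pools (SD, n = 4 each), with a log2 fold change of 0.02 ± 0.145 (adjusted p = 0.966) whose sign turned in 4 of 16 alternatives.

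C3, on which all pathways converge, was read mainly from c3a.1 (ENSDARG00000012694; chromosome 1, 56130222 to 56176976, minus strand). It held 7.56, 10.5, 4.22 and 5.42 CPM in mutant replicates 1 to 4, against 7.33, 3.54, 4.80 and 6.67 CPM in wildtype replicates 1 to 4, with wide overlap. Its log2 fold change was 0.31 ± 0.296 (SE; 95% interval -0.34 to 0.96, edgeR adjusted p = 0.638), and it was 0.038 without mutant replicate 2, 0.49 without mutant replicate 3 and 0.15 without wildtype replicate 2. The paralog c3a.3 (ENSDARG00000052207; chromosome 1, 56274613 to 56320569, plus strand) had 0 reads in the 4 mutant pools, and 8 and 11 reads in wildtype replicates 2 and 3 with 0 in the other wildtype pools. The counting command named no option for reads that map to several places, which that program leaves out by default, so levels of the c3a paralogs, which sit in the same stretch of chromosome 1, are uncertain. All 8 rows of C3 genes together came to 7.97 ± 2.27 CPM in mutant and 6.75 ± 2.21 CPM in wildtype pools, against 334 ± 48.6 CPM in mutant and 307 ± 65.1 CPM in wildtype pools for the 2 C4 rows (SD, n = 4 each). The exonic lengths of c3a.1 and c4b are close, at 5069 and 5979 bases.

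Factor H (cfh, ENSDARG00000100442; chromosome 22, 23641801 to 23668468, minus strand), the soluble inhibitor of the alternative convertase, was at the edge of detection. It had 47, 23, 44 and 25 reads in mutant replicates 1 to 4, against 98, 32, 31 and 33 reads in wildtype replicates 1 to 4. Wildtype replicate 1 had the most reads, and the genotypes overlapped. The related genes cfhl4, cfhl1 and cfhl5 lie nearby on the same strand. Reads mapping to several places were not counted by default, so the level of cfh is uncertain too. The log2 fold change was -0.32 ± 0.487 (SE; edgeR adjusted p = 0.789), with a 95% interval from -1.38 to 0.75, and it was 0.17 without wildtype replicate 1 and between -0.56 and -0.11 without any 1 of the other pools. The interval of cfh takes in a difference of the size seen in cfd as well as none, and its SD among pools on the log2 scale was 0.668 in mutant and 0.674 in wildtype pools.

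The terminal pathway gene c7b (ENSDARG00000057121; chromosome 21, 20901505 to 20915291, plus strand) encodes C7, which anchors the forming membrane attack complex. It held 16.2, 15.9, 6.88 and 23.2 CPM in mutant replicates 1 to 4, against 13.2, 16.8, 12.9 and 13.1 CPM in wildtype replicates 1 to 4. Both the highest and the lowest pool were mutants. The log2 fold change was 0.15 ± 0.279 (SE; edgeR adjusted p = 0.827), and it was 0.40 without mutant replicate 3, -0.11 without mutant replicate 4 and 0.25 without wildtype replicate 2. Its end overlaps that of c6.2 on the opposite strand, and the authors counted reads by strand.

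The members fell into clear tiers of level. Over all 8 pools c1qb stood at 51.4, cfd at 50.8, c1qc at 50.7, c1qa at 28.7, c4b at 22.7, c7b at 5.65, c3a.1 at 1.24 and cfh at 0.236 CPM per kilobase. The top 3 could not be ordered, since c1qb exceeded cfd in 2 of 4 mutant and 1 of 4 wildtype pools, and cfd exceeded c1qc in 2 of 4 mutant and 3 of 4 wildtype pools. Next, c1qa exceeded c4b in 2 of 4 mutant and 4 of 4 wildtype pools. From c4b down to cfh each gene exceeded the next in all 8 pools.

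Several members shared their extreme pools. Mutant replicate 3 was the lowest mutant pool in 6 of the 8 tested members, all but cfd and cfh, and wildtype replicate 1 was the highest wildtype pool in 6 of 8, all but cfd and c7b. The summed level of the 10 members was 342, 358, 228 and 362 CPM in mutant replicates 1 to 4, against 397, 273, 331 and 360 CPM in wildtype replicates 1 to 4. The sum overlapped between the genotypes.

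**Figure D4:**
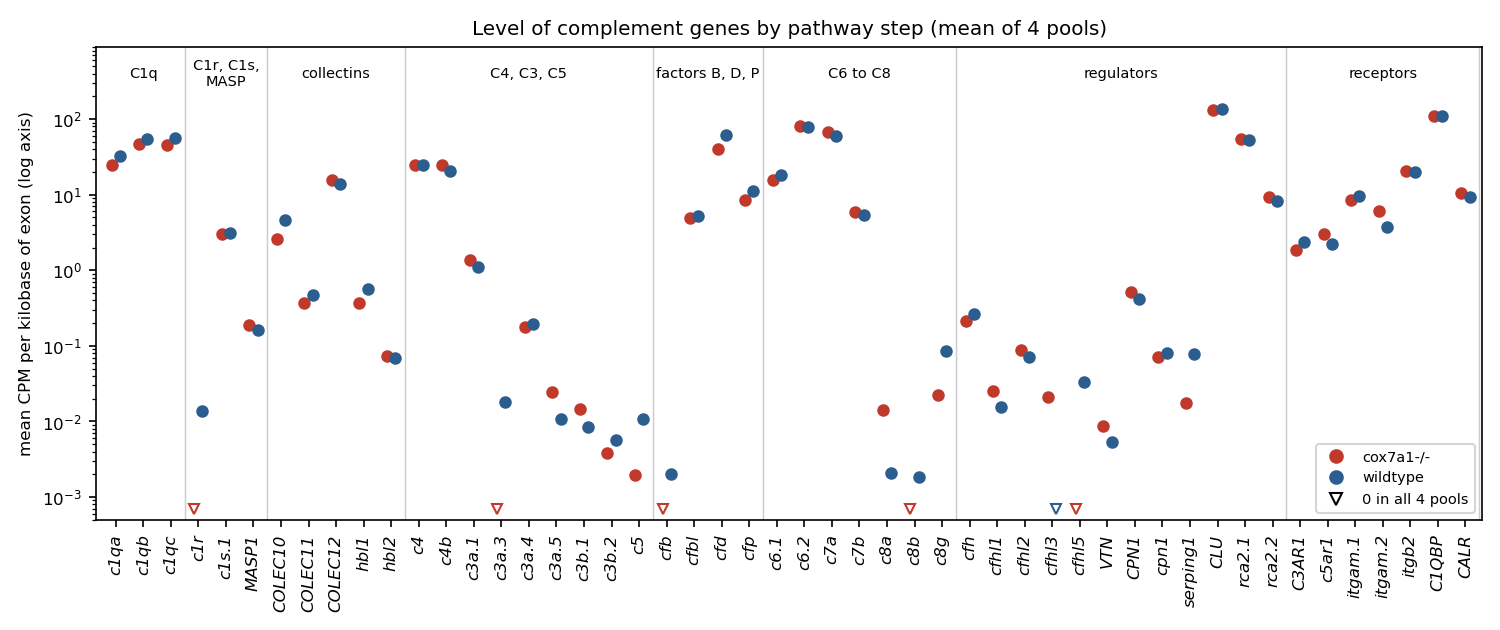
Mean CPM per kilobase of exon (vertical log axis; mean of 4 pools) of all 50 complement rows with at least 1 read, grouped by pathway step, with cox7a1-/- left of wildtype for each gene and open triangles for 0 reads in all 4 pools. C1q, C4, C6, C7 and cfd stand between 5.36 and 81.3 CPM per kilobase, while c5, c8a, c8b and c8g stay under 0.1.

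A wider list of 50 complement rows showed which of the listed genes were read in the ventricle. Its entries c2, cfi, cd59, c4bp, cd46, hbl3, cr1, vsig4, itgax and cd93 matched no row, so their levels are not known here. Of the 50 rows, 24 passed the filter and 10 had no read in any pool. The C1s gene c1s.1 averaged 11.3 ± 3.31 CPM in mutant and 11.7 ± 2.22 CPM in wildtype pools, whereas c1r had 9 reads in all, from wildtype replicate 3. C6 and C7 were abundant, with the 4 rows c6.1, c6.2, c7a and c7b, none of them called, summing to 594 ± 84.9 CPM in mutant and 564 ± 74.4 CPM in wildtype pools (SD, n = 4 each). In contrast, c5 had 13 reads and the 4 rows of C8 and C9 together 42 reads over all 8 pools. The most abundant rows per kilobase were CLU (clusterin, which blocks the membrane attack complex), C1QBP (a mitochondrial matrix protein that can bind C1q), c6.2, c7a, rca2.1 and c4, with log2 fold changes from -0.04 to 0.16 and edgeR adjusted p-values from 0.612 to 0.966.

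Most of the liver marker transcripts were scarce in the same libraries, though not tfa and RBP4. Of 13 hepatocyte marker rows 11 averaged under 1 CPM in both genotypes, serpina1 had no read in any pool and fabp10a had 6 reads in all. The summed level of these markers ran from 189 to 324 CPM in mutant pools and from 217 to 257 CPM in wildtype pools. Nearly all of it came from tfa (111 CPM in mutant and 108 CPM in wildtype pools on average) and RBP4 (124 and 131 CPM). None of the 3 tested was called by edgeR (0 had an unadjusted p under 0.05). The part of liver transcripts in the complement values was not tested.

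In the wider list 1 of 24 tested genes was called with edgeR, lower in mutants, where 2.02% of all tested genes were called and 0.88% called lower. COLEC10 (ENSDARG00000104752; chromosome 16, 9680908 to 9694822, minus strand) encodes a collectin that in humans binds sugars and the MASP proteases. It held 3.72, 3.28, 3.69 and 3.49 CPM in mutant replicates 1 to 4, against 6.94, 5.79, 6.41 and 6.26 CPM in wildtype replicates 1 to 4. The genotypes did not overlap (5.48% of all tested genes had none with mutants lower), and pools of the same genotype were close. COLEC10 fell to 0.558-fold in mutants, a log2 fold change of -0.84 ± 0.144 (SE; edgeR adjusted p = 0.0199). The call was lost without mutant replicate 3 (adjusted p = 0.0636), without wildtype replicate 1 (0.0557) and without wildtype replicate 3 (0.0609). Its partner COLEC11 had -0.33 ± 0.321 and COLEC12, a scavenger receptor of the same family, 0.16 ± 0.231 (SE; adjusted p = 0.646 and 0.78, both chosen after their values were seen). The lectin gene hbl1 was scarce, at 0.380 ± 0.143 CPM in mutant and 0.579 ± 0.284 CPM in wildtype pools (SD, n = 4 each), and was not called (edgeR adjusted p = 0.6). The mannose-binding lectin gene mbl2 had no read in any pool.

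Among complement receptors the integrin alpha M gene itgam.2 was the 1 gene with higher values in all mutant pools. It held 20.5, 15.2, 22.1 and 16.1 CPM in mutant replicates 1 to 4, against 10.2, 11.9, 13.9 and 8.85 CPM in wildtype replicates 1 to 4, without overlap (6.27% of all tested genes had none with mutants higher). Integrin alpha M pairs with integrin beta 2 into complement receptor 3 on leukocytes. The log2 fold change was 0.72 ± 0.173 (SE) and the edgeR adjusted p of 0.0589 missed the threshold. It was under 0.05 with DESeq2 (0.0073), which called 1107 genes in all, and without a filter (0.0445), and lay between 0.0565 and 0.176 in the other alternatives. The neighbouring paralog itgam.1 had -0.18 ± 0.197 and the partner itgb2 0.05 ± 0.17 (SE; adjusted p = 0.699 and 0.915, both chosen after their values were seen). The C3a receptor gene C3AR1 averaged 1.97 ± 0.842 CPM in mutant and 2.53 ± 0.398 CPM in wildtype pools and the C5a receptor gene c5ar1 3.10 ± 1.09 CPM in mutant and 2.35 ± 1.14 CPM in wildtype pools (SD, n = 4 each), and neither was called (adjusted p = 0.58 and 0.606).

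**Figure D5:**
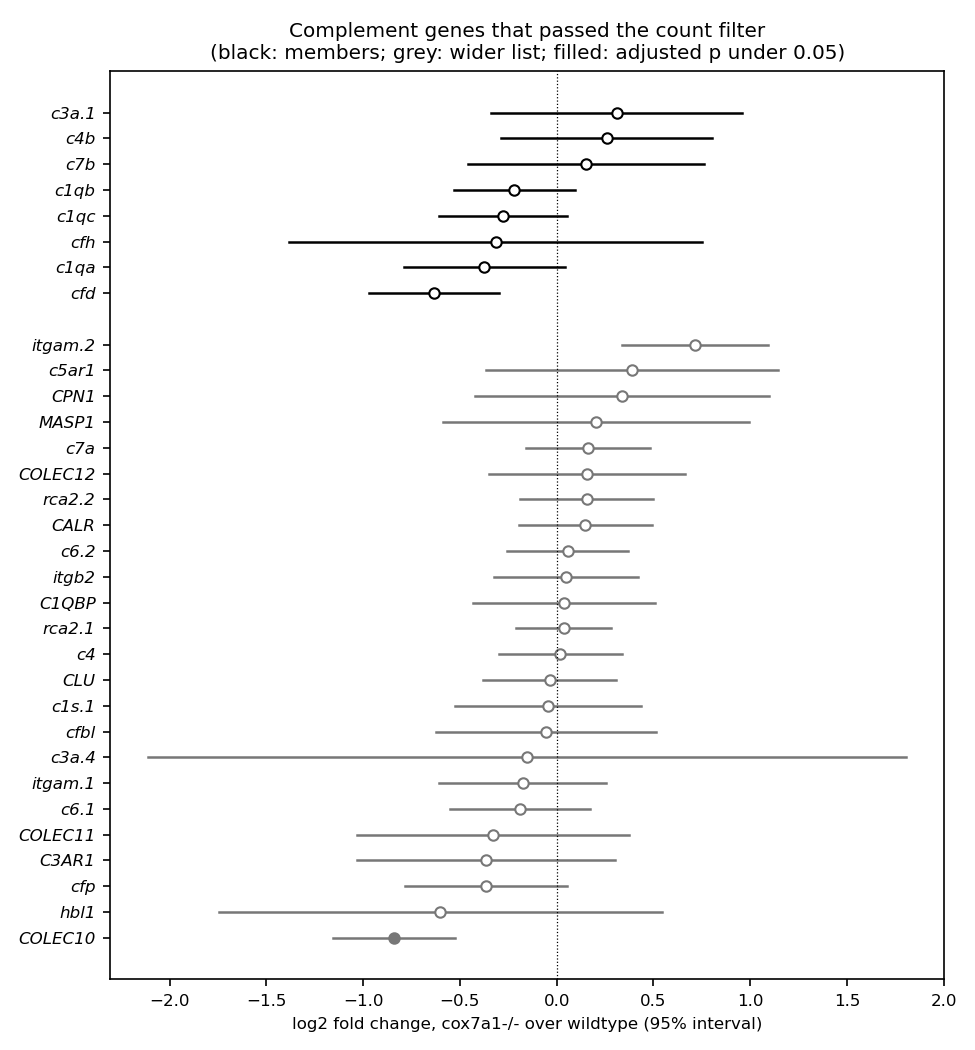
Log2 fold change, cox7a1-/- over wildtype, with its 95% interval (horizontal axis) for the 8 tested complement members (black) and the 24 tested genes of the wider list (grey); a filled point marks an adjusted p under 0.05. COLEC10 at -0.84 is the 1 filled point, and cfd at -0.64 is the lowest member.

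Over the wider list the median log2 fold change was 0.03, with 13 positive and 11 negative values. Of the 24 tested genes 2 had an unadjusted p under 0.05, COLEC10 and itgam.2, which is 8.33%, against 18% of all tested genes. Neutrophil markers summed to between 31.6 and 67.1 CPM in mutant pools and between 29.7 and 57.3 CPM in wildtype pools. None of the 8 tested was called by edgeR, and 0 had an unadjusted p under 0.05. Adipocyte markers, listed because factor D is a product of fat cells in mammals, summed to between 550 and 684 CPM in mutant pools and between 448 and 590 CPM in wildtype pools, mostly LPL and fabp4a. Of the 6 tested, 5 had positive log2 fold changes (median 0.40), all but fabp4a (-0.23), and none was called by edgeR. Of these 1 (LPL, higher) had an unadjusted p under 0.05, and it had no overlap, as had 6.27% of all tested genes with mutants higher. An ADIPOQ row (ENSDARG00000062228) averaged 2.57 CPM in mutant and 1.66 CPM in wildtype pools (log2 fold change 0.63, edgeR adjusted p = 0.385). The untested gene plin1, which coats fat droplets, averaged 0.0591 CPM in mutant and 0.131 CPM in wildtype pools. All 5 tested red blood cell markers had positive log2 fold changes (median 0.57, 2 with an unadjusted p under 0.05, none called by edgeR). Of all tested genes 9.42% were higher with such an unadjusted p. Red blood cell markers summed to between 657 and 1787 CPM in mutant pools and between 598 and 988 CPM in wildtype pools. The part of neutrophils, fat cells and blood in the complement values was not tested.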

How the data were processed

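RNA sequencing counts of 8 ventricle pools were analysed. The authors deposited raw counts per gene, made per the file headers by featureCounts 2.0.3 at strand setting 2, on exons of the Ensembl 109 annotation of GRCz11. No option to count multi-mapped reads appears in that command. The submitters' processing notes also list FastQC, MultiQC, fastp and STAR, without versions. The deposited exon length of each gene served for levels per kilobase. Libraries were made with a directional kit, per the labels' protocols.

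Symbols came from a table of gene IDs (29201 of 32520 rows matched). All 10 members matched by symbol, as did 40 of 55 entries of the wider list, with 5 more matched by adding or dropping a paralog suffix. The members and lists were chosen with earlier results of these data known. Of the rows, 7094 had no count. Genes were filtered with filterByExpr (minimum count 10), scaled by TMM and tested with edgeR 4.0.16 in R 4.3.3 (genotype alone as the term), with Benjamini-Hochberg adjustment over 17949 genes. The standard error is the log2 fold change divided by the square root of F, and a prior count of 2 was added on the log2 scale. Positive values mean higher in mutants. Each edgeR p-value rests on the spread among pools within a genotype, taken over both genotypes together and drawn towards that of other genes. Nothing in the labels says that pools came from separate clutches. The script was tested on simulated data, where 53% of 2-fold and 81% of 4-fold changes were called and 4.96% of calls were false. Smaller changes were not simulated. Alternatives used DESeq2 1.42.0 and limma 3.58.1, other scaling and filters, a length trend (lowess span 0.3), a replicate block, and each pool left out.

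Named were cox7a1, all members, the 6 wider genes with the highest level per kilobase and the 6 with the smallest p, and the 5 genes most like C1q and cfd (average log2 CPM of at least 1). Members, marker genes and wider genes outside that rule are named as examples, and their values were seen before they were chosen.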

Additional observations from a re-analysis of the deposited data

Results flagged for a closer look

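In groups of 4 pools, the gap between an extreme pool and its nearest neighbour was set against the whole range, and 6 of 64 groups passed Dixon's 95% critical value, where chance gives about 1 in 20. Mutant replicate 3 was low in c1qb (34.9 CPM, next 46.4 CPM) and in the summed complement members (228 CPM, next 342 CPM). Wildtype replicate 1 was high in cfh (1.67 CPM, next 0.653 CPM) and in the summed lymphocyte markers (30.3 CPM, next 11.2 CPM), and low in the summed cardiomyocyte markers (39832 CPM, next 47532 CPM). Wildtype replicate 2 was high in c7b (16.8 CPM, next 13.2 CPM).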

How the results depend on the processing

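The count of 363 called genes was 157 with library totals, 1107 with DESeq2's test and 210 with the replicate block, and ranged from 68 to 473 with 1 pool left out. The count of members called, 0, was 1 (cfd, lower) with library totals, without a filter, with at least 1 CPM in 4 pools, with DESeq2's test, with limma-voom and with the length trend removed, and 0 to 1 with a pool left out. In the wider list the count of 1 was 2 without a filter and with DESeq2's test, and 0 to 1 with a pool left out. The cox7a1 value of -1.11 passed the threshold at -1.12 without a filter, -1.11 with DESeq2's test and -1.07 with the length trend removed, and ranged from -1.50 to -0.91 with a pool left out. Signs turned for C1QBP (-0.019 with library totals, -0.024 with limma-voom, -0.023 with the replicate block; -0.25 to 0.14 with a pool left out) and c4 (-0.011 with library totals, -0.032 with the length trend removed; -0.077 to 0.11 with a pool left out). They also turned with a pool left out for c6.2 (-0.068 to 0.12), c7b (-0.11 to 0.40), cfh (-0.56 to 0.17), CLU (-0.15 to 0.094) and rca2.1 (-0.020 to 0.078). The causes were not tested. Same-numbered pools deviated together with correlations of 0.246, -0.071, 0.0365 and -0.066, and 1 of 4 mutant pools was most like its own number, so the numbers were not taken as pairs. The replicate block ended no call of a named gene. Low counts kept cfb and c3a.3 from being tested.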
